A study of Drosophila melanogaster with 60 samples.

Results

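Brains of Or67d mutant males that had been single-housed (SH) were compared with brains of Or67d mutant males that had been group-housed (GH), by CUT&RUN for H3K4me3 and for RNA polymerase II (RNAPolII). The comparison used 12 of the 60 libraries of the study, the 3 SH and 3 GH libraries labelled as Or67d mutant with each antibody, chosen by genotype and housing label. In CUT&RUN, antibody-bound chromatin in permeabilised cells is cut free by a nuclease fused to protein A or G, and the freed fragments are sequenced. The whole study crossed 5 genotypes (Canton-S wild type, abbreviated CS, and mutants of Or67d, Or47b, fru and dsx) with both housings, with 3 biological replicates each, 15 male brains per H3K4me3 library and 30 per RNAPolII library. The Or67d flies carried the genotype w+/Y; +/+; Or67dGAL4/GAL4 in both housings, that is, 2 copies of a GAL4 allele of Or67d, with the second chromosome given as +/+. The labels used here give neither the age of the flies nor the length of housing. Each library pooled whole brains, so fewer cells of a type and less signal per cell cannot be told apart.

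Or67d encodes the olfactory receptor of the antennal neurons that detect cis-vaccenyl acetate (cVA), a pheromone that males carry and that acts on courtship and aggression. A male in a group is exposed to cVA from other males, and a male without working Or67d lacks the main receptor for it, so the comparison asks how housing relates to brain chromatin when that channel is lost. H3K4me3 is a histone modification that collects at active promoters, and RNA polymerase II is the enzyme that transcribes protein-coding genes.

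The values are the authors' normalised reads per peak, on 1 common set of peaks per antibody. A mean of 10 or more across an antibody's 30 libraries was required for testing, which 14513 of 14894 H3K4me3 peaks and 21076 of 21113 RNAPolII peaks reached. By median length, tested H3K4me3 peaks were 983 bp and RNAPolII peaks 2262 bp long, and 3209 and 5310 of them lay over several genes. An RNAPolII value therefore often stands for a stretch of chromosome and not for 1 gene. The 6 Or67d libraries held between 2737179 and 5091249 reads in peaks with H3K4me3 and between 3549097 and 6459322 with RNAPolII. Differences are given as log2 change, SH minus GH, of the value plus 1, from limma fitted over all 10 groups of an antibody, with Benjamini-Hochberg adjustment over all tested peaks. Positions are those of the deposited tables, and gene names come from the overlap of a peak with RefSeq gene spans.

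The marker lists did not set neurons cleanly apart from other cell types. In the GH libraries the H3K4me3 peaks over the neuronal markers nSyb, brp and Syt1 held 1010, 505 and 486 normalised reads per kb, and over all 5 neuronal markers the values went down to 15.9, at Syn. The 3 measured glial markers held between 37.7 and 54.5 per kb with H3K4me3 and the 3 hemocyte markers between 16.9 and 22.6, while the highest marker reached 473 for male germline (bol), 384 for fat body (apolpp, in a peak shared with Zyx), 308 for photoreceptors (norpA, in a peak shared with 2 other genes) and 201 for muscle (Mlc1, in a peak shared with tau). With RNAPolII the neuronal markers held between 67.6 and 199 per kb and the glial ones between 38.4 and 146, and the highest marker of the other types reached between 60.9 (hemocyte) and 154 (muscle). No tested peak of either antibody lay over Or67d itself, so the mutated gene could not be used to check the labels.

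One library stood apart. RNAPolII library GH 3 differed from each of the other 5 Or67d RNAPolII libraries by a chi-square of 5.53 to 13.9 per degree of freedom, against 1.99 to 4.22 among the other 10 pairs. It was the highest of the 6 libraries at many strong peaks: at the RNAPolII peak that overlaps the strongest H3K4me3 peak of Hr38 it held 1385 against 539 to 736 in the others, and at the strongest fru peak 2295 against 903 to 1724. Over the strongest 25% of peaks its value minus the mean of the other 5 had a median of 0.09 and quartiles of -0.11 and 0.42 in log2. SH 3 was the library nearest to GH 3, at 5.53, and the remaining pairs with GH 3 ran from 8.44 to 13.9. At the Hr38 and fru peaks SH 3 was the highest of the others, at 736 and 1724. RNAPolII changes are therefore given with and without GH 3 where it moves them. The values without GH 3 still hold SH 3 and may be tilted by it. Counts of peaks whose groups do not overlap use all 6 libraries. No H3K4me3 library of the 6 stood apart in this way, with pairs between 1.93 and 3.17.

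No peak passed the adjusted threshold of 0.05 with either antibody. With limma 0 of 14513 H3K4me3 peaks (0.0%) and 0 of 21076 RNAPolII peaks (0.0%) were called, and the smallest adjusted p was 0.225 and 1. At an unadjusted p under 0.05 limma counted 564 H3K4me3 peaks (3.89%), of which 348 (2.4%) had higher values in SH and 216 (1.49%) lower, and 642 RNAPolII peaks (3.05%), 255 (1.21%) higher and 387 (1.84%) lower. Tests on the recovered whole reads also called 0 peaks, with 374 H3K4me3 and 670 RNAPolII peaks at an unadjusted p under 0.05 by edgeR and 333 and 566 by DESeq2. Without GH 3 limma called 0 peaks and counted 1073 RNAPolII peaks (5.09%) at an unadjusted p under 0.05, and without the H3K4me3 library of the same number 571 H3K4me3 peaks (3.93%).

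The differences were bounded most closely at strong peaks. The median log2 change was 0.00 with H3K4me3 and -0.01 with RNAPolII, with quartiles of -0.12 and 0.17 and of -0.12 and 0.09 (-0.15 and 0.15 with RNAPolII without GH 3). Of the H3K4me3 peaks 207 differed by over 2-fold, 165 of them in the weakest 25% by mean value and 41 in the next 25%. In the strongest 25% of H3K4me3 peaks, which ran from a mean of 263 to 5341 normalised reads, the changes ranged from -0.49 to 0.41, and the 95% interval of the change lay within 1.5-fold at 99.8% of peaks. In the strongest 25% of RNAPolII peaks the changes ranged from -0.46 to 0.32, and 94.7% had an interval within 1.5-fold. Without GH 3 they ranged from -0.43 to 0.63, and 85.0% had such an interval. In the weakest 25% the interval lay within 2-fold at 15.4% of H3K4me3 peaks and 54.3% of RNAPolII peaks (36.7% without GH 3), so a 2-fold difference was not detectable at most weak H3K4me3 peaks. For a single peak of median precision to be called alone, the fold had to reach 2.9 with H3K4me3 and 2.17 with RNAPolII, and 1.55 and 1.57 at the strongest 25%.

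**Figure D1:**
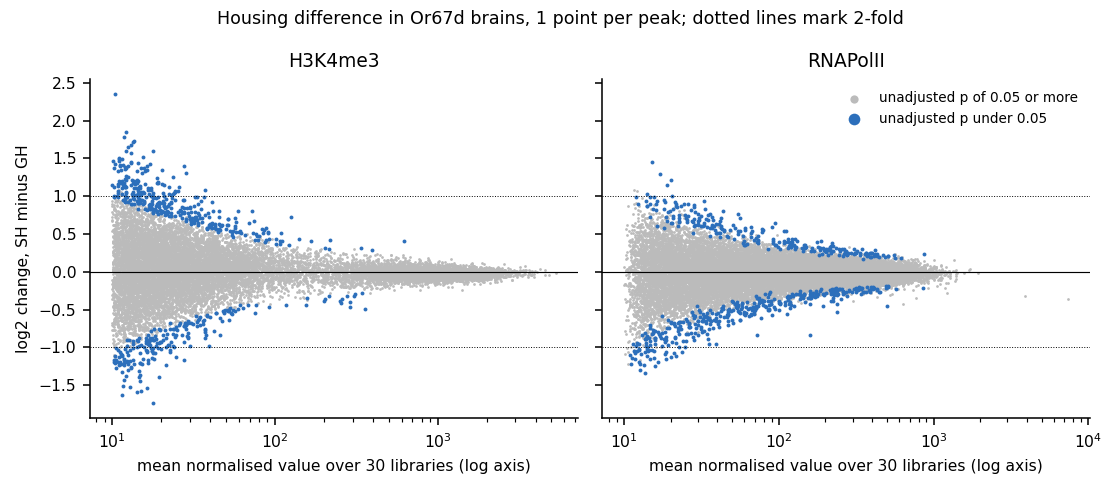
Log2 change between SH and GH Or67d brains against the mean normalised value over the 30 libraries of an antibody (log axis), 1 point per tested peak, with blue points at an unadjusted p under 0.05. The spread narrows from weak to strong peaks, and no H3K4me3 peak in the strongest 25% lies outside -0.49 to 0.41.

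**Figure D2:**
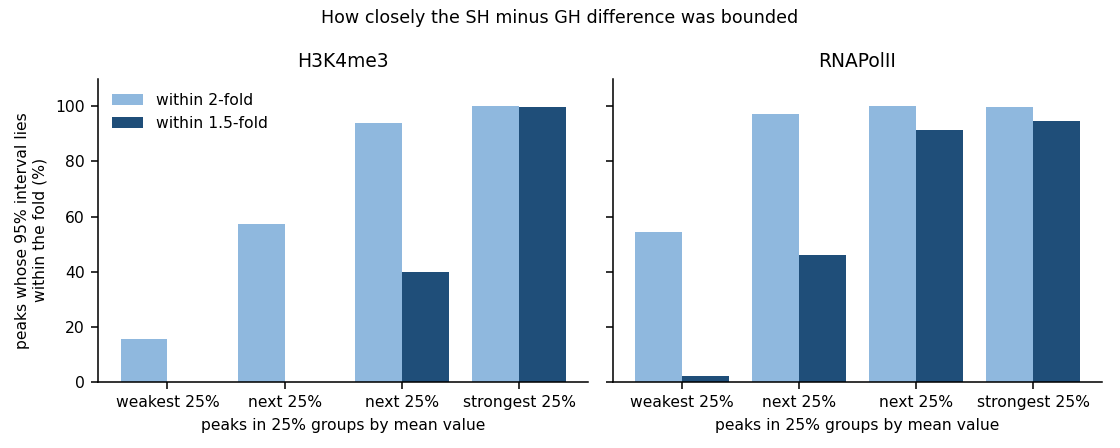
Share of tested peaks (%) whose 95% interval for the SH minus GH change lies within 2-fold (light) or 1.5-fold (dark), in groups of 25% by mean value. With H3K4me3 the dark bar goes from 0 in the weakest 25% to 99.8% in the strongest 25%.

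The housing difference of Or67d brains was also set against that of CS brains. The difference between them passed the threshold at 0 H3K4me3 and 0 RNAPolII peaks in limma, with 431 (2.97%) and 581 (2.76%) at an unadjusted p under 0.05 and smallest adjusted p-values of 0.934 and 1. Without Or67d GH 3 the RNAPolII difference passed at 0 peaks, with 889 (4.22%) at an unadjusted p under 0.05 and a smallest adjusted p of 0.315. All 3 SH libraries lay above all 3 GH libraries at 648 H3K4me3 peaks in Or67d (4.46%) and 496 in CS (3.42%), and below them at 488 (3.36%) and 339 (2.34%). With RNAPolII the order was turned: SH lay above GH at 686 peaks in Or67d (3.25%) and 1098 in CS (5.21%), and below at 872 (4.14%) and 1017 (4.83%). These counts were not tested against each other, and those of Or67d with RNAPolII include GH 3, the library that stood apart. Across peaks the changes of the 2 genotypes, which share no library, had a Pearson correlation of 0.001 over 14513 H3K4me3 peaks and 0.029 over 21076 RNAPolII peaks. In the strongest 25% of H3K4me3 peaks it was 0.098 with CS, -0.047 with Or47b, 0.022 with fru and 0.135 with dsx. In the strongest 25% of RNAPolII peaks it was 0.183, -0.13, -0.003 and 0.156 in the same order, and without GH 3 it was -0.109, 0.199, 0.029 and -0.56, so leaving out 1 library turned the sign with all 4 genotypes. These are descriptions over peaks, which are not independent replicates and share library depth. The other mutants gave these shares of peaks with SH above and below GH: with H3K4me3 17.5% and 12.7% in Or47b, 3.62% and 3.31% in fru and 5.59% and 4.62% in dsx, and with RNAPolII 3.38% and 3.61%, 4.13% and 4.39%, and 5.62% and 6.06%. With H3K4me3 the Or67d shares lay within the range of CS, fru and dsx.

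H3K4me3 and RNAPolII changes were close to uncorrelated, and in the strongest 25% the sign of the correlation turned without GH 3. Over 11315 overlapping pairs of an H3K4me3 and an RNAPolII peak the Pearson correlation was 0.024, and 51.8% of pairs had the same sign (0.009 and 50.2% without GH 3). Over the 2935 pairs in the strongest 25% of H3K4me3 peaks it was 0.091 with 55.7% of the same sign, and -0.048 with 44.1% without GH 3. At 13 of the 11315 pairs both antibodies had an unadjusted p under 0.05, of which none passed after adjustment. Over all tested peaks 3.89% with H3K4me3 and 3.05% with RNAPolII had such a p, and in the strongest 25% it was 0 pairs. Whether 13 exceeds what unrelated antibodies would give was not tested. The pair over BckdhB, a subunit of the branched-chain keto acid dehydrogenase, had changes below 0 with both antibodies (-0.47 with H3K4me3 and -0.54 with RNAPolII, or -0.42 without GH 3). The SH and GH libraries overlapped there with both antibodies. The pair over CHKov1 lay higher with both (1.19 with H3K4me3 and 0.30 with RNAPolII, or 0.32 without GH 3). Its H3K4me3 peak was weak, with 8.41, 4.09 and 4.23 in GH and 11.7, 14.0 and 14.7 in SH. The pair over Snap25, a SNARE protein of synaptic vesicle fusion, had opposite signs: 1.12 with H3K4me3, where GH values were 1.20, 16.4 and 9.51, and -0.29 with RNAPolII, or -0.45 without GH 3.

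By the naming rule, 12 peaks per antibody and direction were taken in order of unadjusted p, among peaks over a gene with a mean of at least 50 whose SH and GH libraries did not overlap. None of these 48 passed the threshold, and since the rule selects for separation, that they do not overlap is no result.

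Among the H3K4me3 peaks with lower values in SH that met the rule, the first by p lay over Hr38, the fly member of the NR4A family of nuclear receptors, whose transcription in neurons follows activity. This peak (2L:20712919-20715467) held 337, 360 and 323 normalised reads in GH and 242, 247 and 245 in SH. The mean was 340 ± 18.6 (SD, n = 3) in GH and 245 ± 2.41 (SD, n = 3) in SH, a log2 change of -0.47 (95% interval -0.77 to -0.18, limma unadjusted p = 0.00207, adjusted p = 0.908). Every SH library lay below every GH library, and the change was -0.51 without GH 3. In the other genotypes the change at this peak was -0.14 in CS, -0.20 in Or47b, 0.16 in fru and -0.21 in dsx, and the difference from CS was not past the threshold (limma unadjusted p = 0.112).

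Another gene of this kind was sr (stripe), the fly relative of the mammalian Egr transcription factors, which also respond to activity. Its peak (3R:18121279-18124246) held 364, 263 and 254 in GH and 232, 238 and 208 in SH, a log2 change of -0.36 (95% interval -0.65 to -0.07, limma unadjusted p = 0.0173, adjusted p = 1). GH replicate 1 stood above the other GH libraries, and without it the change was -0.20. The lowest GH value exceeded the highest SH value by little. Here the CS brains had a similar value, -0.29, also without overlap, and dsx brains -0.34. The difference between Or67d and CS at this peak had an unadjusted p of 0.73.

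The gene sty (sprouty), whose product inhibits receptor tyrosine kinase signalling, had a named peak with each antibody at different places. The H3K4me3 peak (3L:3416623-3419645) held 222, 259 and 256 in GH and 176, 170 and 219 in SH, a change of -0.39 (95% interval -0.71 to -0.07), with -0.31 in CS. The named RNAPolII peak lay elsewhere over the gene (3L:3396573-3401975) and held 306, 286 and 269 in GH and 219, 225 and 227 in SH, a change of -0.36 (95% interval -0.56 to -0.15, limma unadjusted p = 0.00118, adjusted p = 1) and -0.40 without GH 3. At that RNAPolII peak CS was at -0.04. The RNAPolII peak over the H3K4me3 one overlapped between housings, with a change of -0.03 and of 0.35 without GH 3.

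The other lower H3K4me3 peaks included 1 over Gem3, a helicase of the SMN complex, with 406, 382 and 359 in GH and 219, 312 and 358 in SH (-0.39). SH replicate 3 all but reached the lowest GH value there, SH replicate 1 lay farthest below, and the change was -0.19 without SH replicate 1. A peak over Naam, a nicotinamidase, held 67.2, 70.9 and 68.7 in GH and 52.8, 38.6 and 42.1 in SH (-0.63), while in fru brains the change was 0.55 in the opposite direction without overlap. The remaining 7 peaks, over lncRNA:CR46474, hbt, CG33144, CG46385, hwt, kmr and kirre with w, had changes between -0.55 and -0.32. CG46385 and hwt had nearly the same change in CS, -0.38 and -0.41.

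The H3K4me3 peaks with higher values in SH were mostly weaker. The first by p under the rule lay over 4 genes, CG34310, cup, Spn27A and cort, at 2L:6673072-6675119, where cup encodes a translational repressor of the germline and Spn27A a serpin that restrains Toll signalling. It held 432, 464 and 420 in GH and 559, 624 and 572 in SH, a change of 0.41 (95% interval 0.17 to 0.66, limma unadjusted p = 0.00135, adjusted p = 0.88). The GH mean was 439 in Or67d, below those of CS (618), Or47b (624), fru (674) and dsx (634), and the Or67d SH mean was 585. The change at this peak was 0.01 in CS, 0.26 in Or47b, -0.22 in fru and 0.10 in dsx. This was the only one of the 48 named peaks that passed the threshold under any alternative processing, and the wide RNAPolII peak over it overlapped between housings (0.19, and 0.12 without GH 3).

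Several of these genes act in neurons or in hormone signalling. A peak over DopEcR, a membrane receptor for dopamine and ecdysteroids, held 119, 113 and 121 in GH and 160, 171 and 147 in SH (0.43, 95% interval 0.09 to 0.77), and its change in CS was 0.09. A peak over CG31036 and Capa, the gene of the CAPA neuropeptides, held 43.2, 38.2 and 32.7 in GH and 80.7, 59.7 and 51.3 in SH (0.72, 95% interval 0.20 to 1.23), against -0.23 in CS. At Capa SH replicate 1 stood highest. A peak over mnb, the minibrain kinase related to mammalian DYRK1A, held 90.1, 73.7 and 69.7 in GH and 135, 103 and 99.8 in SH (0.52).

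Transcription factor genes in the same group were luna (Krüppel-like), Mef2 (MADS box) and Hr4 (a nuclear receptor of the ecdysone response). The luna peak held 46.8, 54.6 and 81.3 in GH and 89.5, 88.9 and 87.9 in SH (0.58), with SH values closer together than GH values. It had the highest change of 10 H3K4me3 peaks over luna, of which 5 were below 0, the lowest at -0.32. The Mef2 peak held 51.6, 66.8 and 66.5 in GH and 106, 84.2 and 84.3 in SH (0.56). It was a weak peak of the gene: the strong peak over Mef2, Pdrg1 and Pal1 differed by 0.01 (95% interval -0.24 to 0.25). The Hr4 peak held 51.6, 66.8 and 43.3 in GH and 79.3, 88.9 and 82.4 in SH (0.64). The remaining 5 named peaks, over lncRNA:CR45308, Hs6st with mira, bchs, Jon25Bi with Marcal1, and CG7368 with its neighbours, had changes between 0.41 and 0.81. The change at lncRNA:CR45308 was 0.80, and 0.39 without GH replicate 2.

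**Figure D3:**
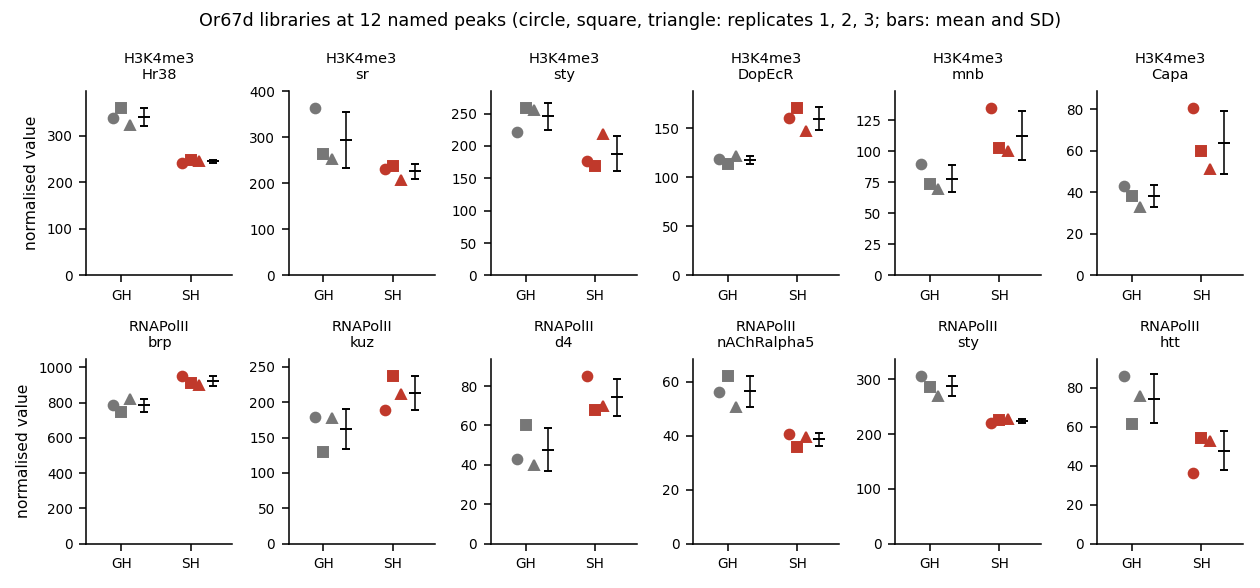
Normalised values of the 6 Or67d libraries at 12 of the 48 named peaks, 6 per antibody (grey, GH; red, SH; circle, square and triangle, replicates 1, 2 and 3; black bars, mean and SD, n = 3), on axes from 0. The Hr38 H3K4me3 peak goes from 340 in GH to 245 in SH and the brp RNAPolII peak from 784 to 922, and none of the 12 passed the adjusted threshold.

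With RNAPolII the strongest named peak with higher values in SH lay over brp, which encodes Bruchpilot, a scaffold protein of the presynaptic active zone. It (2R:9526775-9539159) held 789, 746 and 818 in GH and 952, 913 and 902 in SH, means of 784 ± 36.0 and 922 ± 26.5 (SD, n = 3 each). The log2 change was 0.23 (95% interval 0.07 to 0.40, limma unadjusted p = 0.00784, adjusted p = 1), 0.26 without GH 3, and 0.07 in CS. All SH libraries lay above all GH libraries. Another RNAPolII peak over brp, the strongest of that gene, held 829, 897 and 1528 in GH and 923, 1054 and 1066 in SH (-0.04, and 0.23 without GH 3), and the main H3K4me3 peak over brp held 1695, 1652 and 1787 in GH and 1660, 1584 and 1645 in SH (-0.07).

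The smallest unadjusted p with RNAPolII was at d4, where the peak (2R:5278052-5281615) held 43.1, 60.3 and 39.9 in GH and 85.2, 67.8 and 69.7 in SH (0.64, 95% interval 0.34 to 0.94, limma unadjusted p = 0.00013, adjusted p = 1). The change there was 0.53 without GH 3 and 0.28 in CS. A peak over CG7778 held 76.8, 66.0 and 74.6 in GH and 108, 105 and 117 in SH (0.60, and 0.62 without GH 3), with -0.05 in CS. A peak over kuz, the metalloprotease that cleaves Notch, held 179, 130 and 178 in GH and 189, 237 and 211 in SH (0.40, 0.47 without GH 3, and 0.24 without GH replicate 2, the lowest library). At CG14535 the antibodies opposed each other: RNAPolII values were 44.0, 40.2 and 30.2 in GH and 68.6, 60.6 and 65.6 in SH (0.77, and 0.61 without GH 3), while the overlapping H3K4me3 peak held 700, 702 and 690 in GH and 578, 645 and 597 in SH (-0.20), both without overlap.

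Among RNAPolII peaks with lower values in SH was 1 of a transmitter receptor. The peak over nAChRalpha5, a nicotinic acetylcholine receptor subunit, held 56.2, 62.2 and 50.8 in GH and 40.5, 36.0 and 39.4 in SH (-0.53, and -0.60 without GH 3), against 0.16 in CS. It is a weak peak: the strong RNAPolII peak of that gene differed by -0.05 (0.35 without GH 3). The peak over htt, the fly huntingtin gene, held 86.2, 61.2 and 75.9 in GH and 36.4, 54.4 and 52.5 in SH (-0.64, and -0.62 without GH 3), with -0.34 in CS.

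Dll (Distal-less), a homeobox gene of appendage and antennal development, had 81.5, 72.7 and 91.9 in GH and 49.9, 64.7 and 46.4 in SH (-0.61, 95% interval -0.95 to -0.27). The peak over alphaSnap, whose product takes SNARE complexes apart, with asRNA:CR43875 and Spn77Ba held 231, 264 and 253 in GH and 180, 184 and 206 in SH (-0.39). These 2 peaks differed in the same direction without GH 3, by -0.53 and -0.38. At 2 others that library moved the value: AdamTS-A, a secreted metalloprotease gene, was at -0.42 with it, -0.57 without it and -0.28 without GH replicate 1, and CG14186, where GH 3 held 181 against 83.4 and 79.4 in the other GH libraries, was at -0.84 with it and -0.46 without.

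The named peaks were set against the overlapping peaks of the other antibody. Of the 24 named H3K4me3 peaks 23 had an overlapping RNAPolII peak, of which 13 had the same sign, or 8 without GH 3, and 0 a separation of SH from GH in either direction, beside 3.25% of all RNAPolII peaks with SH above GH and 4.14% below. Of the 24 named RNAPolII peaks 11 had an overlapping H3K4me3 peak, of which 4 had the same sign and 2 a separation, at jdp in the same direction (-0.34 with RNAPolII, or -0.24 without GH 3, and -0.50 with H3K4me3) and at CG14535 in the opposite one. Over all H3K4me3 peaks 4.46% were separated with SH above GH and 3.36% below. In CS brains 16 of the 24 H3K4me3 and 15 of the 24 RNAPolII peaks had the sign seen in Or67d, with a median change in that direction of 0.09 and 0.07 against sizes of 0.46 and 0.47 in Or67d. The Or67d size comes from the libraries that chose the peaks and is no fair standard for CS. In Or47b, fru and dsx brains 11, 14 and 13 H3K4me3 peaks and 9, 13 and 9 RNAPolII peaks had the Or67d sign.

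All peaks over Hr38 and sr were then read out, a look chosen after their values had been seen. With H3K4me3 2 of 3 peaks over Hr38 and 4 of 5 over sr had a change below 0, and the highest changes were 0.06 and 0.26. In CS 2 of these 3 and 4 of these 5 were also below 0. With RNAPolII 7 peaks lay over Hr38, and all 7 had a change below 0, or 5 of 7 without GH 3. In CS 1 of these 7 was below 0. The lowest (2L:20711815-20712195), also over lncRNA:CR44188, held 48.7, 38.3 and 83.6 in GH and 28.1, 25.7 and 28.3 in SH, a change of -0.95 (95% interval -1.51 to -0.40, limma unadjusted p = 0.00146, adjusted p = 1), or -0.64 without GH 3. The change there was 0.19 in CS, -0.96 in Or47b, -0.19 in fru and -0.53 in dsx, and the difference from CS had an unadjusted p of 0.0058. The next (2L:20708458-20708689) held 37.5, 47.8 and 61.7 in GH and 29.1, 26.7 and 24.2 in SH (-0.83, and -0.65 without GH 3), against 0.10 in CS and -1.0 in Or47b. Both are short, weak peaks of the gene. The strong RNAPolII peak over the H3K4me3 peak differed by -0.23 (95% interval -0.78 to 0.32), and by 0.21 without GH 3, so no direction holds there.

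At sr 11 of 14 RNAPolII peaks were below 0, or 9 of 14 without GH 3, and in CS 7 of 14. The peak at 3R:18118742-18119634 held 49.7, 51.7 and 37.3 in GH and 31.2, 17.5 and 34.3 in SH (-0.76, and -0.90 without GH 3), against -0.45 in CS. The peak at 3R:18129229-18133010 held 284, 262 and 240 in GH and 208, 222 and 221 in SH (-0.27, and -0.33 without GH 3), against 0.09 in CS. Peaks of 1 gene share their libraries and neighbouring chromatin, and none of these passed the threshold.

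**Figure D4:**
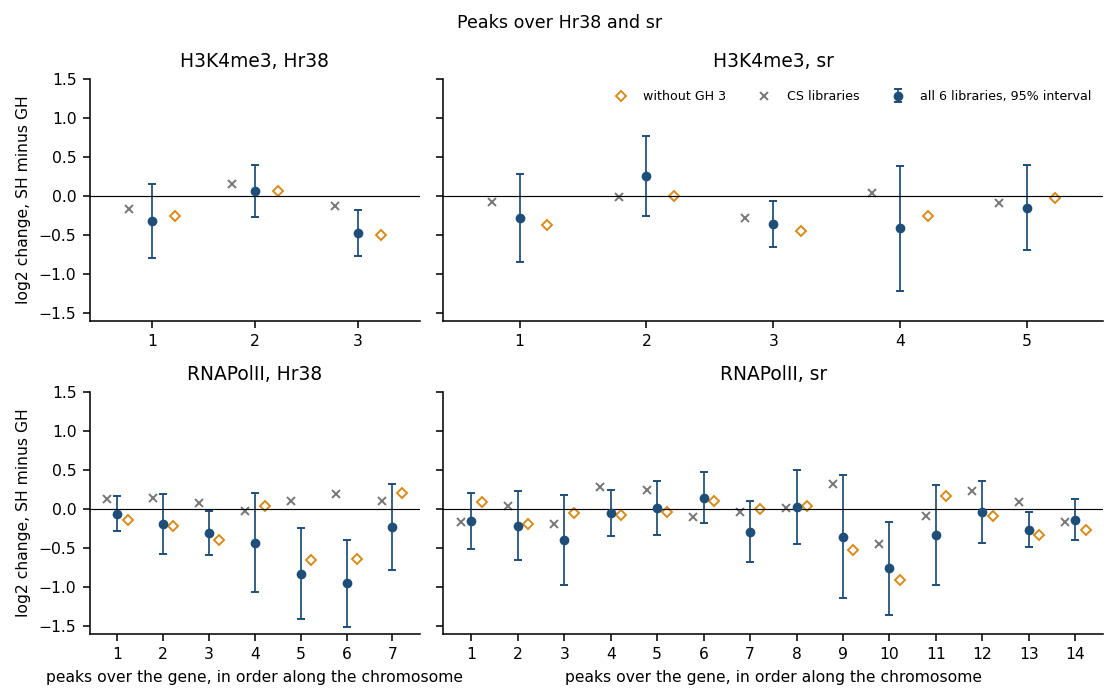
Log2 change, SH minus GH, at each tested peak over Hr38 and sr in order along the chromosome (blue, all 6 Or67d libraries with 95% interval; orange, without GH 3; grey crosses, CS libraries). All 7 Hr38 RNAPolII points lie below 0 with all libraries and 5 of 7 without GH 3.

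The other activity-regulated transcription factors did not share a direction with H3K4me3. Over the list of 16 such genes, Hr38 and sr included, 12 had a tested peak with each antibody. At the strongest peak of each gene the median H3K4me3 change was -0.04, beside -0.01 over all 9504 genes with a peak. The RNAPolII changes ran from -0.34 to 0.02 with a median of -0.14, beside -0.01 over all 13220 genes. Without GH 3 that median was 0.14, so its sign rested on 1 library. Jra and kay, the fly Jun and Fos genes, had H3K4me3 changes of -0.03 and -0.04. The peak over Atf3, a bZIP factor gene, held 3.60, 2.73 and 3.17 in GH and 14.7, 15.2 and 8.24 in SH with H3K4me3 (1.68, limma unadjusted p = 0.000177, adjusted p = 0.551), a level of a few reads, with -0.25 in CS.

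Genes of the cVA pathway and other pheromone receptors had little signal in the brain with H3K4me3, where 5 of 18 had a tested peak, and 16 of 18 did with RNAPolII. None was called, and the medians were 0.12 and -0.00. Or65a, another receptor gene linked to cVA, had 2 RNAPolII peaks, both with overlapping groups. One held 269.8, 217.2 and 163.3 in GH and 204.8, 170.5 and 166.6 in SH (-0.24, and -0.43 without GH 3). The other, shared with Or65b, differed by -0.01, or -0.14 without GH 3. The 2 peaks over lush, the odorant-binding protein for cVA, differed by 0.08 and 0.16, and without GH 3 by 0.07 and -0.18, so the second changed sign. The peak that holds Snmp1, a membrane protein needed for cVA detection, differed by -0.05, or -0.09 without GH 3.

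The courtship genes fru and dsx, transcription factors of the sex determination pathway, had more peaks. Of 10 H3K4me3 peaks over fru, 3 had SH below GH without overlap, beside 3.36% of all tested H3K4me3 peaks. The strongest of all 10 held 263.0, 341.0 and 271.5 in GH and 333.2, 322.9 and 286.7 in SH (0.11, 95% interval -0.19 to 0.42). The lowest change, -1.17, was at a peak with 19.2, 16.4 and 18.0 in GH and 8.81, 7.02 and 6.41 in SH. With RNAPolII all 14 fru peaks had an interval within 2-fold and changes between -0.30 and 0.24, or -0.49 and 0.54 without GH 3. The strongest was at 0.09 with GH 3 and 0.54 without. Over dsx 4 H3K4me3 peaks had changes between -0.02 and 0.10, and 14 RNAPolII peaks between -0.78 and 0.28, or -0.80 and 0.14 without GH 3.

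Across 34 gene lists of neuronal, hormonal, metabolic and chromatin function, with 703 of 751 genes matched to a symbol, no member was called with either antibody. H3K4me3 medians ran from -0.10 (serotonin) to 0.12 (pheromone reception), and RNAPolII medians from -0.14 (activity-regulated transcription factors) to 0.05 (RNA polymerase II and pausing), or from -0.13 to 0.24 without GH 3. In 6 of the 34 lists the 95% interval lay within 1.5-fold at every gene with an H3K4me3 peak, beside 6658 of all 9504 genes. They were the 65 ribosomal protein genes, 27 respiratory chain and ATP synthase genes, 12 genes of RNA polymerase II and pausing, 11 of sleep, 11 of insulators and 8 of dosage compensation. RpL32, a ribosomal protein gene, held 4427, 4458 and 4751 in GH and 3919, 4568 and 4807 in SH (-0.04), and Syt1, the calcium sensor of vesicle release, 1676, 1562 and 1771 in GH and 1581, 1798 and 1729 in SH (0.03). Without GH 3 the RNAPolII medians of acetylcholine, ecdysone, glycolysis and Polycomb genes went from -0.04, 0.00, -0.03 and -0.03 to 0.24, 0.22, 0.15 and 0.15.

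**Figure D5:**
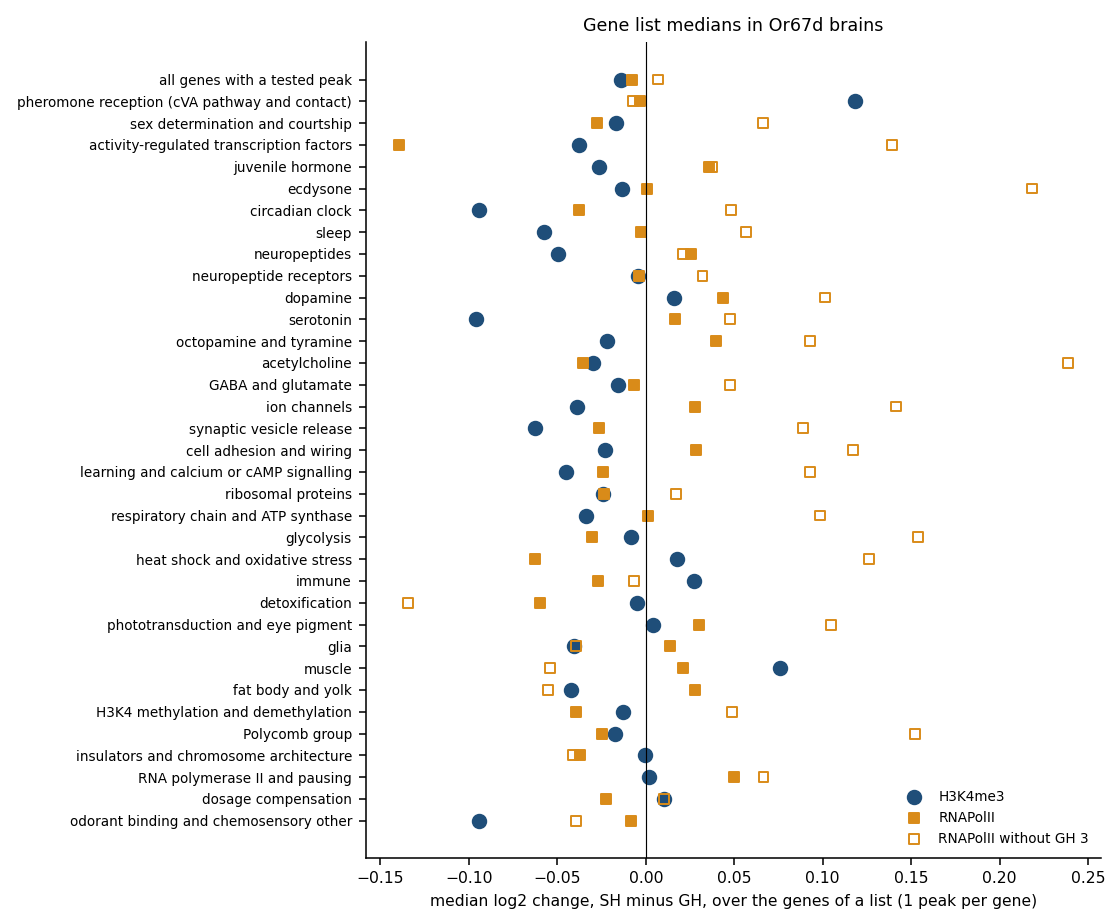
Median log2 change, SH minus GH, over the genes of each of 34 lists and over all genes, 1 peak per gene (blue, H3K4me3; filled orange, RNAPolII; open orange, RNAPolII without GH 3). H3K4me3 medians lie between -0.10 and 0.12, and many open squares lie to the right of the filled ones, as for acetylcholine at -0.04 and 0.24.

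Among neuropeptide genes 2 of 16 with H3K4me3 had higher values in SH at an unadjusted p under 0.05, Capa and Mip, and 0 lower. With RNAPolII 1 of 27 had higher and 1 lower values. Over all genes the shares were 1.19% higher and 0.894% lower with H3K4me3, and 1.14% and 1.1% with RNAPolII. The peak that holds AstA, the gene of the allatostatin A peptides, held 526, 473 and 516 in GH and 435, 439 and 388 in SH (-0.26, -0.25 without GH 3, and 0.02 in CS). The peak that holds Ms, the myosuppressin gene, held 378, 363 and 390 in GH and 440, 431 and 463 in SH (0.24, 0.26 without GH 3, and 0.11 in CS). Both peaks span several genes. Of 27 neuropeptide receptor genes with an H3K4me3 peak 1 had higher and 1 lower values at an unadjusted p under 0.05. The higher was rk, the receptor for bursicon, with 44.4, 46.4 and 33.8 in GH and 58.7, 66.7 and 60.5 in SH (0.58). The lower was Dh44-R2, a receptor for the diuretic hormone DH44, in a peak shared with Nepl10, with 264, 240 and 231 in GH and 203, 179 and 209 in SH (-0.32, and -0.10 in CS).

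In the lists of amine and fast transmission other than serotonin, 1 gene each had an unadjusted p under 0.05 with H3K4me3. It was 1 of 10 for dopamine, 1 of 10 for octopamine and tyramine and 1 of 15 for acetylcholine, all higher in SH. For GABA and glutamate it was 1 of 18, lower. The medians of these lists were 0.02, -0.02, -0.03 and -0.02. The serotonin list had 0 of 5, with a median of -0.10. Over all genes with H3K4me3 1.19% were higher and 0.894% lower at this p. With RNAPolII these lists and serotonin had 0 such genes. With H3K4me3 a peak over ple, the tyrosine hydroxylase of dopamine synthesis, held 28.8, 19.1 and 38.0 in GH and 51.4, 39.8 and 39.4 in SH (0.63), and one over Oamb, an octopamine receptor, 28.8, 30.0 and 30.6 in GH and 58.7, 42.1 and 40.3 in SH (0.62). The GH and SH values did not overlap at either, though the margin at ple was small. Ace, acetylcholinesterase, had a change of 0.40, and Gat, the GABA transporter, -0.59. Their changes in CS were -0.17, -0.14, 0.03 and 0.21. In metabolism the RNAPolII peak over Ldh, lactate dehydrogenase, held 250, 267 and 247 in GH and 184, 211 and 230 in SH (-0.29, and -0.32 without GH 3).

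Of the 5 glial markers 3 had an H3K4me3 peak. All 3 measured markers, alrm, Gs2 and moody, had changes below 0 (-0.27, -0.42 and -0.94), and their summed value was 102 to 130 in GH and 81.9 to 89.8 in SH, while the summed value of 5 neuronal markers overlapped, at 4636 to 5024 and 4518 to 4945. None of the 3 was called, and moody alone had an unadjusted p under 0.05. Their median was -0.42 in Or67d and 0.38 in CS. The wider list of glial genes had a median of -0.04 over 14 genes, with changes from -0.94 to 0.46. Of these, 2 of 14 were lower and 0 higher at an unadjusted p under 0.05, beside 0.894% and 1.19% of all genes. With RNAPolII 3 of 5 glial markers were below 0, among them repo, the glial homeobox gene, with 589, 690 and 660 in GH and 529, 602 and 524 in SH (-0.23, and -0.21 without GH 3), and the sums overlapped, at 1756 to 2284, the highest being GH 3, and 1773 to 1825. The part of glial cell number or glial signal in the values of Gat, which glia express, was not tested.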

How the data were processed

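Each antibody has 1 deposited table of signal over 30 libraries, in which the authors scaled the reads of each peak by a library size factor. The submitters' processing notes name Trim Galore, Bowtie2, MACS2, DESeq2 and ChIPseeker without versions; for the genome build, read counter and filters, the sources used here give nothing. In the deposited tables every value was a whole multiple of 1 read's value within 0.01 reads (100% of values), so whole reads were recovered for count tests as alternatives. For 6 libraries the step was unsure (with RNAPolII, Or67d SH 3 and CS SH 2; with H3K4me3, Or47b SH 2, CS GH 2 and replicate 1 of both fru housings), and they were left out of those tests only.

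Peaks with a mean of at least 10 were taken as log2 of the value plus a pseudocount of 1 and tested by limma (version 3.58.1, R 4.3.3; 1 mean for each of 10 groups, moderated with a mean trend), two-sided, with Benjamini-Hochberg adjusted p-values and a threshold of 0.05. The fit leaves 20 residual degrees of freedom. A fold change on this scale understates the change of weak peaks. Alternatives were edgeR 4.0.16 and DESeq2 1.42.0 on whole reads, other pseudocounts, filters and scalings, a replicate block and leaving out libraries. Scripts were tested on simulated data.

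Peaks were named by the genes whose RefSeq spans (Release 6 plus ISO1 MT) they overlap, 1 or several, with no statement of where in a gene they lie. Named peaks follow a rule: per antibody and direction up to 12 called peaks, filled, since none was called, with peaks over a gene with a mean of at least 50 and no overlap between libraries, in order of unadjusted p; the overlapping peaks of the other antibody; up to 3 members per list by mean; list members with an unadjusted p under 0.05; and peaks over Or67d, Or65a, lush, Snmp1, fru and dsx. Other peaks named were chosen after their values were seen. The comparison, lists and members were chosen with earlier results of these data known. Read totals limit precision by counting error, and reads carry no molecular identifiers.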

Additional observations from a re-analysis of the deposited data

How the results depend on the processing

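Of 78 settings for the counts of called peaks (both antibodies, the housing difference in Or67d and its difference from CS), 71 gave 0 calls. For the H3K4me3 housing difference, quantile normalisation gave 1 call, the peak over cup and its neighbours (adjusted p = 0.0264), and adding each library's strong-to-weak spread as a covariate gave 2, that peak and a weak one over Sur (smallest adjusted p = 0.0159). Leaving out 1 library gave 0 to 2 calls there: 2 without GH replicate 1 and 1 without GH replicate 2, the latter a peak over Dscam2 at a few reads. For the H3K4me3 difference from CS it gave 0 to 1, a peak over ec, without Or67d GH replicate 2 or without CS SH replicate 2. RNAPolII gave 0 to 0 for both. Leaving out 3 RNAPolII libraries that stood apart, Or67d GH 3 and replicate 3 of Or47b in both housings, gave 1 call, a peak over mthl8 at or near 0 in all 6 Or67d libraries (adjusted p = 0.00455), and 0 calls for the RNAPolII difference from CS, with 1421 peaks at an unadjusted p under 0.05 against 581. The causes were not tested. With the replicate number as a block the calls were 0 in all 4 comparisons. For housing 759 H3K4me3 and 775 RNAPolII peaks had an unadjusted p under 0.05. The smallest adjusted p of limma with H3K4me3 was 0.078 for housing and 0.0519 for the difference from CS. Deviations of same-numbered SH and GH libraries correlated at -0.007 to 0.041 with H3K4me3, against -0.051 to 0.039 for different numbers. With RNAPolII these were 0.016 to 0.124 against -0.132 to 0.065. Whether libraries of the same number share a source of variation was not tested. Of the 48 named peaks 0 changed direction over 792 settings, and the cup peak passed the threshold in 2. The peaks were chosen for SH and GH libraries that do not overlap, so leaving out 1 library could not turn their direction. That none turned is therefore no result for those settings. Depth and 3 libraries per group limit the weak peaks most.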
